A study of Mus musculus with 8 samples.

Results

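The genes described here are 10 that mark plasmacytoid dendritic cells, followed by RNA sequencing in B cells of the bone marrow. Sham-operated mice gave 3 libraries (Sham) and ovariectomized mice 3 (OVX). The genes are Siglech, Bst2, Irf7, Tcf4, Ccr9, Runx2, Klk1, Pacsin1, Spib and Lag3, taken by symbol from the 54532 Ensembl genes of the deposited count table, and all 10 were found. All 10 also had enough reads to enter the test, with 15305 genes in all. B cells were taken from marrow with magnetic beads, and removal of both ovaries served as a model of estrogen deficiency. The labels of these libraries give neither strain nor age, and the time between surgery and harvest is not given in the sources used here. They also do not say whether each library came from a separate mouse, so the p-values measure only the spread between these libraries. A bead-selected fraction can carry some cells other than B cells, and in such bulk RNA fewer cells of a type and less RNA per cell cannot be told apart.

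Plasmacytoid dendritic cells are marrow-derived immune cells that release large amounts of type I interferon when Toll-like receptors in their endosomes meet viral nucleic acid. Their identity is set by the E protein TCF4 (E2-2), helped by SPIB, RUNX2 and IRF8, and they constitutively hold IRF7, the factor that drives interferon gene transcription. They share much of this programme with B cells, which express Tcf4 and Spib themselves and use Irf7 and Bst2 in their own response to interferon. Siglech, Klk1 and Pacsin1 are less shared with B cells, so the list joins genes of very different specificity.

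The 6 libraries held between 23838775 and 33136701 counts. Levels are in CPM (counts scaled to the TMM-adjusted size of each library) and are compared only within a gene because no transcript lengths were used. The 12 general B cell genes summed to between 17515 and 19820 CPM. Among them Ighm and Cd79a, which encode parts of the B cell receptor, had log2 fold changes of 0.08 and 0.06. Cd74 had a value of -0.22 (standard error 0.28) and a 2.17-fold range over the 6 libraries. Vpreb3, a gene of B cell precursors, had the largest change, 0.41 (standard error 0.22). Ebf1 had 0.35 (standard error 0.12), with every OVX library above every Sham library, as for 4.33% of all genes. It was the only 1 of the 12 at an unadjusted p under 0.05 in the edgeR test given below. By the quasi-likelihood test of edgeR (Benjamini-Hochberg adjustment over all genes), 0 of the 10 members were called (fold change of 1.6 or more at an adjusted p under 0.05), as were 0% of all genes tested. At an unadjusted p under 0.05, 1 member, Runx2, was lower in OVX and 0 were higher, against 2.28% of all genes lower (349) and 1.47% higher (225). Scaled on B cell genes, these 2 counts over all genes were 409 and 65. In either direction, 3.75% of all genes passed that threshold. The member count was 3 with DESeq2 (2.75% of all genes), 1 with limma-voom (3.88%), 0 without Sham replicate 3 (1.80%) and 7 without Sham replicate 1 (16.8%). The median log2 fold change (OVX relative to Sham) was -0.61 over the 10 members and -0.0081 over all genes, with 8 members below 0, as were 51.8% of all genes. Adjusted p-values were 0.811 for every member except Lag3 (0.813).

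Siglech encodes a sialic acid-binding surface receptor that signals through DAP12 and is the most used marker of the mouse plasmacytoid dendritic cell. Sham replicates 1, 2 and 3 held 63, 238 and 369 of its reads, and OVX replicates 1, 2 and 3 held 142, 26 and 37. These reads correspond to 2.66, 8.38 and 14.8 CPM in Sham and to 5.78, 0.918 and 1.12 CPM in OVX. The highest library was Sham replicate 3 and the lowest OVX replicate 2, 16.2-fold apart, and the groups overlapped because OVX replicate 1 lay above Sham replicate 1. Only 0.941% of all tested genes had so wide a range over the 6 libraries, where the median gene had a 1.43-fold range. The group levels were 8.63 ± 6.10 CPM in Sham and 2.61 ± 2.75 CPM in OVX (SD, n = 3 each). Its log2 fold change was -1.74 (standard error 0.84), with a 95% interval from -3.71 to 0.22. Leaving out Sham replicate 3 gave -1.11, and leaving out OVX replicate 1 gave -3.07. The gene lies on chromosome 7 between 55768154 and 55779448 (GRCm38.p6, the mm10 build named in the submitters' processing notes). Tyrobp, which encodes DAP12 and is used by many myeloid cells, had 66.7 CPM in Sham and 42.3 CPM in OVX.

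Runx2, a runt-domain factor known for bone formation and also needed for plasmacytoid dendritic cells to leave the marrow, had 71, 215 and 322 reads in Sham replicates 1, 2 and 3 and 118, 33 and 57 reads in OVX replicates 1, 2 and 3. In CPM this was 2.997, 7.57 and 12.9 in Sham and 4.81, 1.16 and 1.73 in OVX. The order of the libraries was the same as for Siglech, an order held by 146 of the 15305 genes tested (0.954%). The log2 fold change of Runx2 was -1.62 (standard error 0.66, 95% interval -3.17 to -0.07, unadjusted p = 0.0423, adjusted p = 0.811 in edgeR's quasi-likelihood test), and -1.07 without Sham replicate 3. Its relatives were more even across the libraries. Runx1, the runt factor of B cell development, ranged only 1.11-fold over the 6 libraries with a log2 fold change of 0.0020 (95% interval -0.15 to 0.15), and Runx3 ranged 1.37-fold with a value of -0.25 (standard error 0.11). Osteoblasts are the best known source of Runx2. Of 9 osteoblast and stroma genes tested 0 were called, 5 lying above 0 and 4 below, with Alpl (alkaline phosphatase) at -0.16, Spp1 (osteopontin) at -0.23 and the chemokine gene Cxcl12 at 0.84 (standard error 0.39). Sp7, their defining factor, had 6 reads in Sham replicate 3 and 0 in the other libraries. Bglap had at most 6 reads in a library. The 12 osteoblast and stroma genes summed to between 58.2 and 66.9 CPM in Sham and between 52.1 and 95.6 CPM in OVX. Of the 9 tested, 3 were highest in Sham replicate 3, against 18.3% of all genes. The part of such cells in the Runx2 level was not tested.

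Ccr9, the receptor for the chemokine CCL25 that directs lymphoid progenitors and dendritic cells to thymus and gut, had 1.52, 3.94 and 6.72 CPM in Sham replicates 1, 2 and 3 and 2.97, 0.635 and 1.76 CPM in OVX replicates 1, 2 and 3. Sham replicate 3 was again highest and OVX replicate 2 lowest, while OVX replicate 3 lay above Sham replicate 1. Its log2 fold change was -1.19 (standard error 0.66, 95% interval -2.73 to 0.35) and -0.63 without Sham replicate 3.

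Klk1, a secreted tissue kallikrein protease, had 8, 40 and 104 reads in Sham replicates 1, 2 and 3 and 25, 4 and 4 reads in OVX replicates 1, 2 and 3. It passed the filter on low counts through Sham replicates 2 and 3 and OVX replicate 1, and with 4 reads the lowest libraries carry a large counting error. Its log2 fold change of -2.26 (standard error 1.06, 95% interval -4.74 to 0.22) was the lowest of the 10 members, and it was -1.11 when Sham replicate 3 was left out and -3.87 without OVX replicate 1. The kallikreins form a cluster of similar genes on chromosome 7 whose reads the counting could have split, so the value is uncertain. Of the 14 Klk1 and Klk1b genes in the table, 11 had no read in any library, and Klk1b27 had at most 9.

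**Figure D1:**
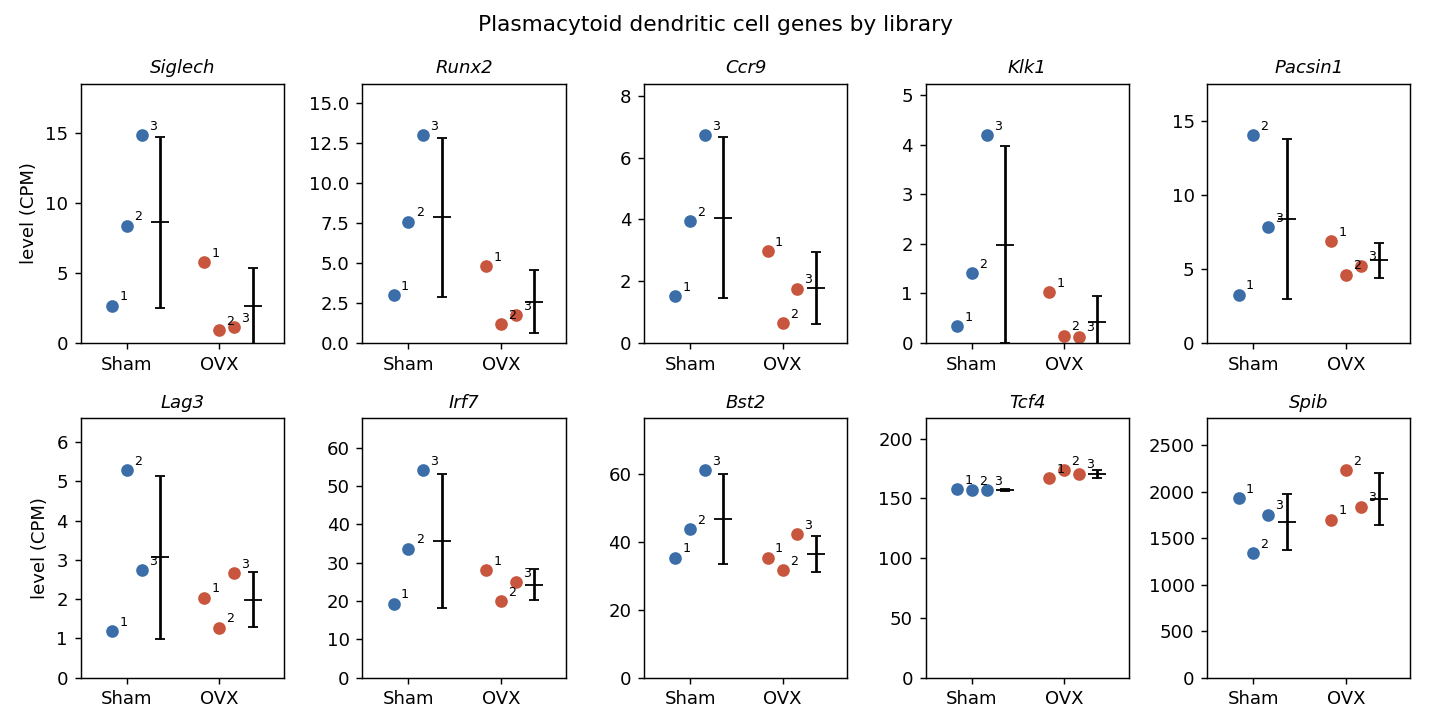
Level of each of the 10 genes in CPM (vertical axes, each starting at 0) by group, with 1 point per library labelled by its replicate number, and the mean with its SD (n = 3 per group) at the right of each group (SD bars that would pass below 0 end at the axis). Siglech, Runx2, Ccr9 and Klk1 were highest in Sham replicate 3, with OVX replicate 1 inside the Sham range, whereas the 3 OVX libraries of Tcf4 lay just above its 3 Sham libraries.

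Siglech, Runx2 and Klk1 thus had similar profiles, and Ccr9 followed them less closely, with OVX replicate 3 above Sham replicate 1. The reads of Siglech, Runx2, Ccr9 and Klk1 together made up 0.00388% of all counts in Sham replicate 3, 0.00218% in Sham replicate 2 and 0.00146% in OVX replicate 1. In Sham replicate 1 and OVX replicates 3 and 2 the share was 0.000747%, 0.000471% and 0.000280%. The genes were also counted against each other. They had been grouped by their levels in these same libraries, so like shares follow from the grouping and are no separate support for it. Siglech supplied from 39.4% (exact binomial 95% interval 29.4% to 49.98%, OVX replicate 3) to 54.6% (48.3% to 60.8%, OVX replicate 1) of the reads of Siglech plus Runx2. The 6 intervals had only 49.6% to 49.98% in common. Siglech supplied from 78.0% to 90.2% of the reads of Siglech plus Klk1, with intervals that had only 80.9% to 81.7% in common. Libraries with few reads had wide intervals, so this overlap does not show that the proportions were constant. With Ccr9 the share was between 59.1% and 68.8% in 5 libraries and 38.9% (29.1% to 49.5%) in OVX replicate 3, where Ccr9 was high for its Siglech level. These intervals cover counting error only, as the reads carry no molecular identifiers.

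Some genes of other cells had nearly the same profile as Siglech. Among 13169 tested genes with a mean of at least 1 CPM, the 5 whose centred log2 levels over the 6 libraries lay nearest to those of Siglech were Lilrb4a, Cx3cr1, Prtn3, Klra2 and Mpo, at root mean square differences from 0.14 to 0.26. Lilrb4a encodes an inhibitory receptor of myeloid cells, Cx3cr1 the fractalkine receptor of monocytes, Prtn3 and Mpo granule enzymes of neutrophil and monocyte precursors, and Klra2 a receptor of the Ly49 family, whose similar members could share reads. Klk1 stood at rank 9 (0.29), Runx2 at 13 (0.30) and Ccr9 at 166 (0.59). The other members lay between rank 548 (Irf7) and rank 12130 (Spib). Siglech supplied from 49.1% to 59.4% of the reads of Siglech plus Cx3cr1, and the 6 intervals had values in common here too. Cx3cr1 was among the nearest genes by these same levels, so its share adds no separate support. The 12 neutrophil genes summed to between 2501 and 9213 CPM in Sham and between 1114 and 4007 CPM in OVX, and 12 of 12 were highest in Sham replicate 3, against 18.3% of all genes. Of the most abundant, the alarmin genes S100a9 and S100a8 and the granule gene Ngp had log2 fold changes of -1.25, -1.17 and -1.26, and the largest was that of the elastase gene Elane (-1.66, standard error 0.80), with 0 of 12 called. Ccr2, a receptor of inflammatory monocytes also found on other myeloid cells, had 10.9, 22.9 and 56.1 CPM in Sham replicates 1, 2 and 3 and 21.2, 4.52 and 2.69 CPM in OVX replicates 1, 2 and 3. Most of the monocyte and macrophage list, to which Ccr2 and Cx3cr1 belong, had another profile. Of its 13 tested genes, 3 were highest in Sham replicate 3 and 9 in Sham replicate 2. Of the 12 T cell genes, 7 were highest in Sham replicate 3. The most abundant of them differed from this, since Cd4 was highest in OVX replicate 3 (32.7 CPM), Lck lay between 20.9 and 33.4 CPM, and Cd28 was highest in Sham replicate 2 (3.49 CPM). Their defining genes Cd3e, Cd3d and Cd3g stayed between 0.0908 and 2.37 CPM, each highest in Sham replicate 3 and lowest in OVX replicate 2 or 3. The library order of Siglech was held by 3 T cell genes and 0 neutrophil genes, against 0.954% of all genes. The part of these other cells in the levels of the 4 members was not tested.

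**Figure D2:**
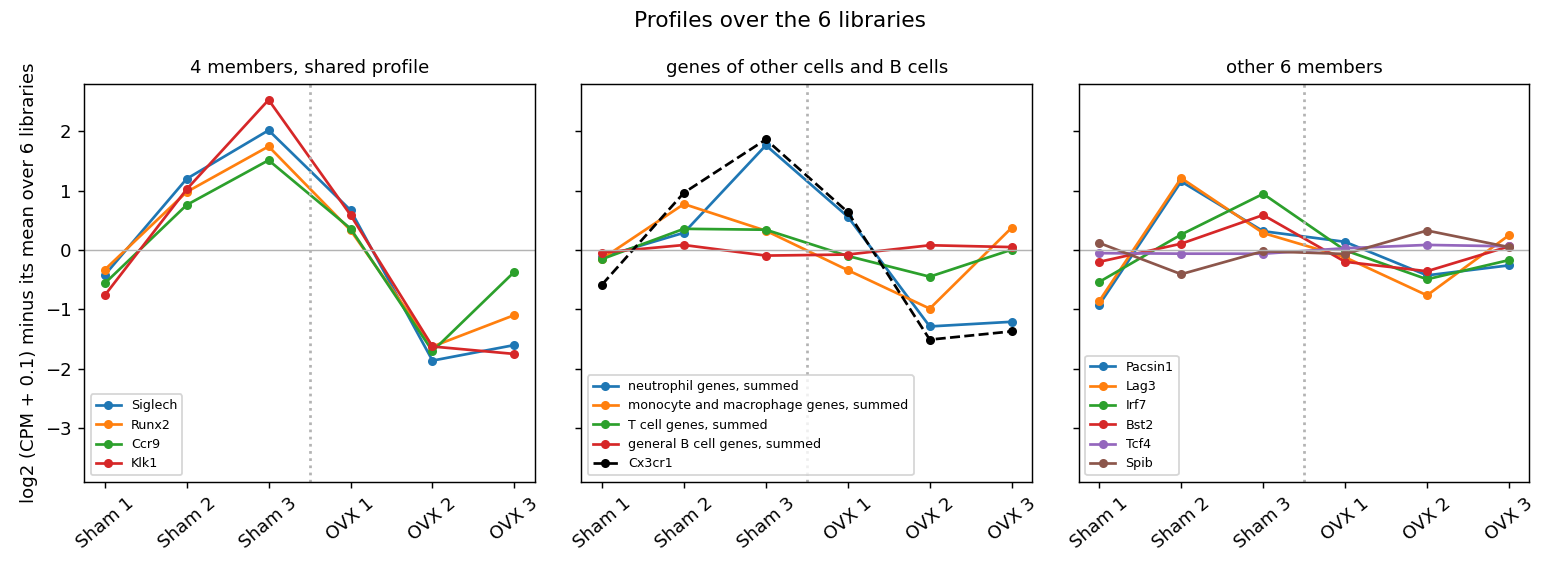
Log2 level of each gene or summed gene list minus its own mean over the 6 libraries (vertical axis, log2 of CPM + 0.1) in Sham replicates 1 to 3 and OVX replicates 1 to 3, for 4 members (left), genes of other cells and B cells (middle) and the other 6 members (right). The 4 members at left peaked in Sham replicate 3 and were low in OVX replicates 2 and 3, as were Cx3cr1 and the neutrophil genes. The summed monocyte and macrophage genes were highest in Sham replicate 2, as were the summed T cell genes (72.1 CPM, against 71.4 CPM in Sham replicate 3). The summed B cell genes were nearly level.

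The windows of 250 bases before the transcription start of these genes are shown because E proteins such as TCF4 bind E-boxes and RUNX factors bind TGTGGT. RefSeq windows (GRCm38.p6) were found for 8 of the 10 members, with Tcf4 and Lag3 as the exceptions. The E-box preferred by E proteins, CAGGTG on either strand, occurred in 4 of the 8 windows, those of Siglech, Klk1, Ccr9 and Bst2, and in 17.2% of all 32851 RefSeq windows of this length. The RUNX hexamer TGTGGT, searched on both strands, occurred in Siglech, Pacsin1 and Runx2 and in 14.0% of all windows. The hexamer GAGGAA (PU box), also searched, occurred in 0 of the 8 windows and in 23.3% of all windows. A match is a string of letters and was not tested as a binding site. In the following windows, read 5′ to 3′ along the gene, capitals mark CAGGTG or its reverse complement in Siglech, Klk1 and Ccr9.
Siglech, chr7:55767934-55768183, + strand: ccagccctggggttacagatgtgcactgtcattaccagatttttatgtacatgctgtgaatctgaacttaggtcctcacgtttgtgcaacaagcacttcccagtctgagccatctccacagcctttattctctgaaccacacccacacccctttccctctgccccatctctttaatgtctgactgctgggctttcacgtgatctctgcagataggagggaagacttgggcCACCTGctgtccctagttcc
Klk1, chr7:44225110-44225359, + strand: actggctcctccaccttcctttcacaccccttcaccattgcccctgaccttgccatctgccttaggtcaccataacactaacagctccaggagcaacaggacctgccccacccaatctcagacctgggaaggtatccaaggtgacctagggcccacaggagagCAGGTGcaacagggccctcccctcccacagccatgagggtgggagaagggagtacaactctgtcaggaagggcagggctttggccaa
Ccr9, chr9:123766961-123767210, + strand: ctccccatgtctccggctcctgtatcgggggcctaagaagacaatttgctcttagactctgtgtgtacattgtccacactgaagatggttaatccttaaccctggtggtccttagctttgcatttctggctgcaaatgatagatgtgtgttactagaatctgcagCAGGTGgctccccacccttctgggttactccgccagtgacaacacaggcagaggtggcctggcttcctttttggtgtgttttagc
The match began 20 bases before the start in Siglech, 87 in Klk1 and 85 in Ccr9, and the RUNX hexamer 80 bases before it in Runx2. The Siglech window, whose last 30 bases with the match lie inside the gene span annotated by RefSeq, and the Runx2 window, with 170 such bases, belong to transcripts that start downstream of another annotated start. The broader E-box CANNTG, which also takes in CAGGTG, was found in 7 of the 8 windows and in 66.2% of all windows.

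Pacsin1 and Lag3 followed another profile. Pacsin1, an endocytic adaptor of neurons that plasmacytoid dendritic cells use for their interferon response, had 3.25, 14.0 and 7.81 CPM in Sham replicates 1, 2 and 3 and 6.88, 4.62 and 5.21 CPM in OVX replicates 1, 2 and 3. Lag3, an inhibitory receptor for MHC class II found on T cells, plasmacytoid dendritic cells and some plasma cells, had 1.18, 5.28 and 2.74 CPM in Sham and 2.04, 1.27 and 2.66 CPM in OVX in the same order. Both genes were highest in Sham replicate 2 and lowest in Sham replicate 1, so that the whole OVX group fell inside the Sham range. The log2 fold changes were -0.59 (standard error 0.47, 95% interval -1.70 to 0.52) for Pacsin1 and -0.63 (standard error 0.54, 95% interval -1.88 to 0.63) for Lag3. Without Sham replicate 2 they were 0.0067 and 0.0226, so the difference between group means rested on that library. Siglech supplied between 16.6% (11.1% to 23.3%) and 65.5% (61.5% to 69.5%) of the reads of Siglech plus Pacsin1, with intervals far apart. The ubiquitous relative Pacsin2 ranged only 1.27-fold. Sham replicate 2 was the highest library for 25.7% of all genes, for 9 of 13 monocyte and macrophage genes tested, for 4 of 8 plasma cell genes and for 4 of 12 general B cell genes, and 5 of the B cell genes and 2 of the plasma cell genes were lowest there. Jchain (641 CPM) and Cd74 (4568 CPM) were among those highest in it, and Ighm, Vpreb3 and Slamf7 (153 CPM) among those lowest. The part of these cells in the levels of Pacsin1 and Lag3 was not tested.

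**Figure D3:**
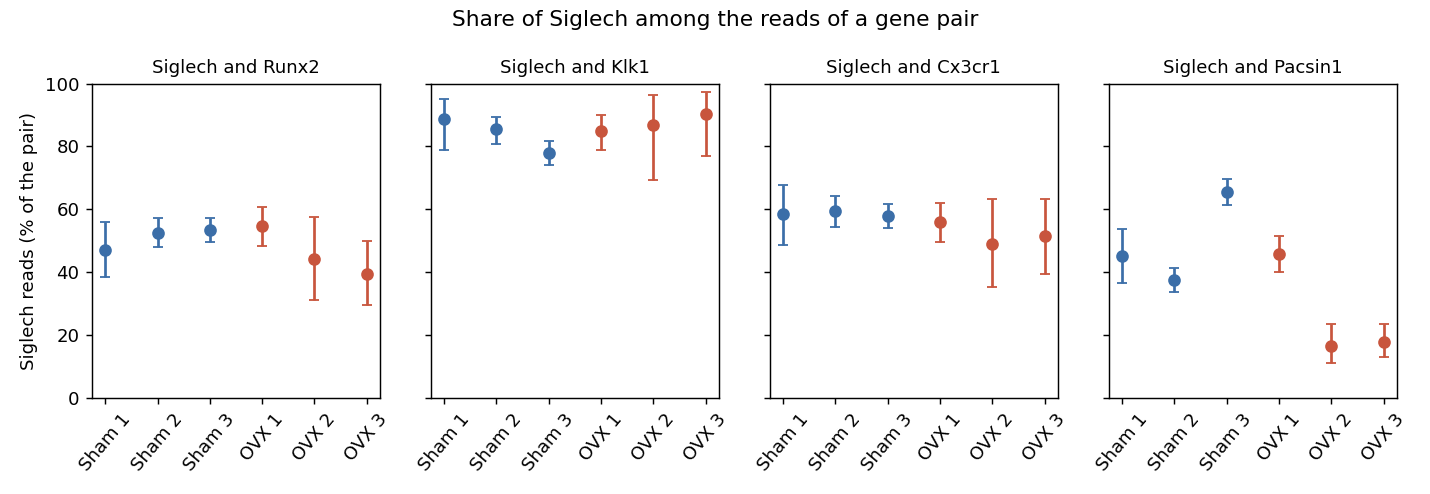
Reads of Siglech as a percentage of the reads of Siglech plus a second gene (vertical axis) in each library, for Runx2, Klk1, Cx3cr1 and Pacsin1, with exact binomial 95% intervals. The share stayed within 39.4% to 54.6% with Runx2 and 49.1% to 59.4% with Cx3cr1, and ran from 16.6% to 65.5% with Pacsin1. The pair with Ccr9, whose intervals had no value common to all libraries, is not shown.

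Irf7, the interferon regulatory factor that plasmacytoid dendritic cells hold at rest and that other cells induce in response to interferon, had 19.3, 33.6 and 54.1 CPM in Sham replicates 1, 2 and 3 and 27.9, 19.9 and 24.9 CPM in OVX replicates 1, 2 and 3. Bst2, which encodes tetherin, the antigen of the PDCA-1 antibody and an interferon-induced protein of many cells, had 35.3, 43.6 and 61.0 CPM in Sham and 35.3, 31.6 and 42.3 CPM in OVX. Both were highest in Sham replicate 3, and for both the groups overlapped. The log2 fold change of Irf7 was -0.56 (standard error 0.34, 95% interval -1.35 to 0.24) and that of Bst2 -0.36 (standard error 0.21, 95% interval -0.84 to 0.12). Without Sham replicate 3 these values were -0.14 and -0.12. Their range over the libraries, 2.803-fold and 1.93-fold, was far narrower than the 16.2-fold range of Siglech.

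The 18 interferon-response genes, which many cells induce, also peaked in the same library. All 18 were tested and 18 were highest in Sham replicate 3, against 18.3% of all genes. Of these, 17 had a log2 fold change below 0, with a median of -0.42, yet none was called (0 at an unadjusted p under 0.05), and without Sham replicate 3 the median was 0.06. Rsad2, which encodes the antiviral enzyme viperin, had the lowest value (-0.93, standard error 0.47), with 6.04, 14.6 and 25.7 CPM in Sham replicates 1, 2 and 3 and 9.45, 6.39 and 8.60 CPM in OVX replicates 1, 2 and 3. Trim30a, Stat2 and Irf9, the most abundant of the list, had values of -0.17, -0.04 and 0.04. The 15 type I interferon genes of the list, Ifnb1 and 14 Ifna or Ifnab genes, had 0 reads in all 6 libraries. The Bst2 window holds 2 overlapping copies of the interferon-stimulated response element (GAAA, any 2 bases, GAAA, with both strands searched), beginning 130 and 124 bases before the start. At least 1 copy occurred in 2.98% of all windows and in no other member window. The Bst2 window is shown with its 2 copies and its CAGGTG in capitals.
Bst2, chr8:71537473-71537722, - strand: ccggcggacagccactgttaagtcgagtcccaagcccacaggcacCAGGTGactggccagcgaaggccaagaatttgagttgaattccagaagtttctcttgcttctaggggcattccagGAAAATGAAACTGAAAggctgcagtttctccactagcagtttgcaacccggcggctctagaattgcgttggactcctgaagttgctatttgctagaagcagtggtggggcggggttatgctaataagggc

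**Figure D4:**
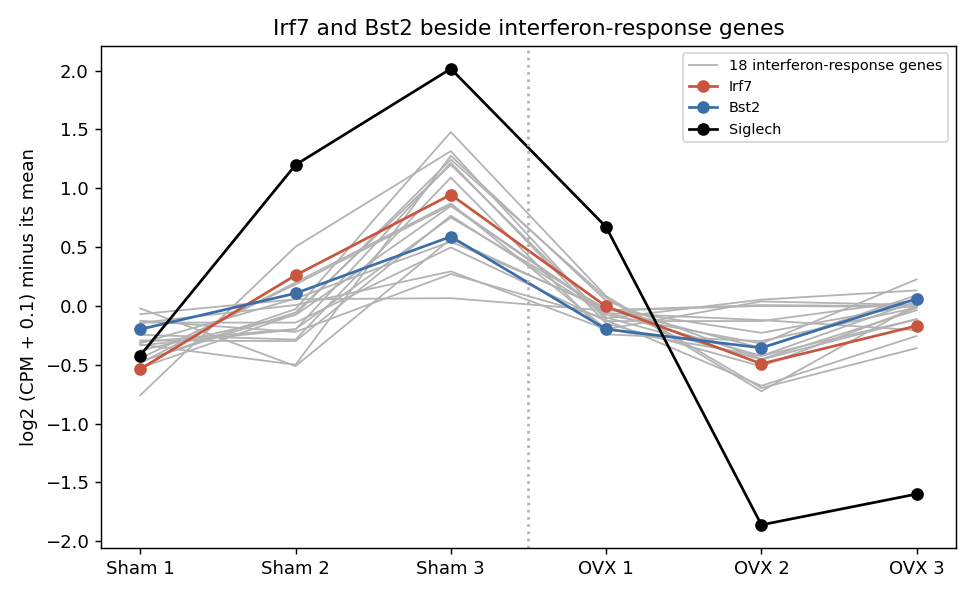
Log2 level of Irf7, Bst2, Siglech and each of 18 interferon-response genes minus its own mean over the 6 libraries (vertical axis, log2 of CPM + 0.1), in Sham replicates 1 to 3 and OVX replicates 1 to 3. Irf7 and Bst2 ran among the interferon-response genes, highest in Sham replicate 3, and Siglech dropped far below its mean in OVX replicates 2 and 3.

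Tcf4 and Spib, the transcription factors that B cells share with plasmacytoid dendritic cells, did not follow the library order of Siglech. Tcf4 had 158, 157 and 157 CPM in Sham replicates 1, 2 and 3 and 167, 173 and 171 CPM in OVX replicates 1, 2 and 3. Its range was 1.11-fold, with all 3 OVX libraries above all 3 Sham libraries, as for 4.33% of all genes. The log2 fold change was 0.12 (standard error 0.06, 95% interval -0.01 to 0.25, adjusted p = 0.811 in edgeR's quasi-likelihood test), and the two-sided exact permutation test gave p = 0.1, the smallest that 3 libraries against 3 allow and the smallest among the 10 members. It ran from 0.11 to 0.13 when 1 library was left out and was 0.08 with scaling on the B cell genes. The other E proteins of B cells, Tcf3 and Tcf12, had log2 fold changes of 0.30 (standard error 0.16) and 0.21 (standard error 0.13), with overlapping groups.

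Spib, an ETS factor of the PU.1 family, had 1929, 1340 and 1752 CPM in Sham replicates 1, 2 and 3 and 1697, 2230 and 1837 CPM in OVX replicates 1, 2 and 3. The library with the lowest Siglech, OVX replicate 2, had the highest Spib. Its log2 fold change was 0.20 (standard error 0.16, 95% interval -0.18 to 0.58), and the groups overlapped. Spi1, which encodes PU.1, ranged 1.23-fold. Tcf4 and Spib together held from 0.153% to 0.235% of all counts, and Siglech, Runx2, Ccr9 and Klk1 at most 0.00388%.

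**Figure D5:**
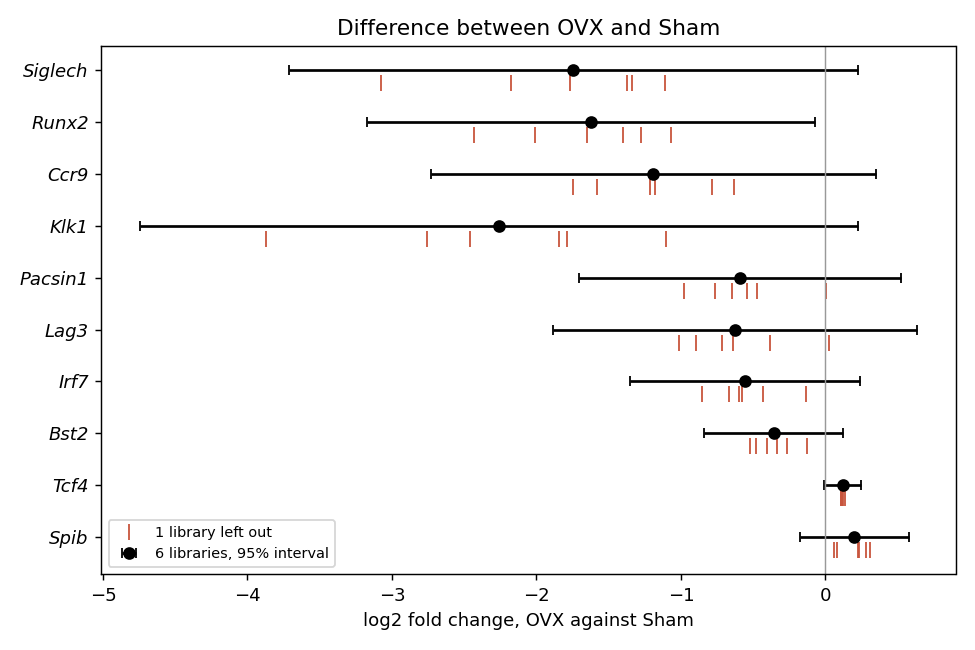
Log2 fold change of OVX against Sham (horizontal axis) for each of the 10 genes, with the value and 95% interval from edgeR's quasi-likelihood fit to 6 libraries (black) and the values after leaving out each library in turn (red ticks). Runx2 was the only member whose interval did not include 0, and Tcf4 had the narrowest interval.

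Other genes of the plasmacytoid dendritic cell and of its regulation were read in the same way. Of 15 further genes used to mark these cells, 14 were tested and 0 called, with 3 log2 fold changes above 0, 11 below and a median of -0.07. The most abundant of them, Zeb2, Pld4 and Rnase6, which B cells also express, had values of 0.10, -0.0050 and -0.03. Ly6c2, a surface protein of plasmacytoid dendritic cells and inflammatory monocytes, had the largest value, -1.53 (standard error 0.72), with 31.0, 62.2 and 151 CPM in Sham replicates 1, 2 and 3 and 56.2, 15.5 and 13.0 CPM in OVX replicates 1, 2 and 3, and Smim5 had -0.82 (standard error 0.48). Epha2 had an unadjusted p of 0.0222 in the same test, the only one of the 14 under 0.05, against 1.47% of all genes higher. Its log2 fold change of 0.43 (SE 0.15) was opposite in sign to that of Siglech. Its 3 OVX libraries lay above its 3 Sham libraries, as for 4.33% of all genes. Cox6a2, a mitochondrial subunit used as a plasmacytoid dendritic cell marker, had 5.47 CPM in Sham replicate 3 and 7.98 CPM in Sham replicate 1, unlike Siglech. Of the 14 tested genes of this list, 5 were highest in Sham replicate 3 (35.7%, against 18.3% of all genes). Of the 14 regulators, 14 were tested and 0 called, with 7 values on each side of 0; Ikzf1 and Ets1, lymphoid factors abundant here, had 0.19 and -0.10. Flt3, the receptor for the cytokine that drives dendritic cell development and a gene of early lymphoid progenitors, had the largest change (-0.64, standard error 0.24, unadjusted p = 0.0318 in the same test), and every OVX library lay below every Sham library, as for 4.12% of all genes.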

How the data were processed

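RNA of bone marrow B cells was sequenced in 3 Sham and 3 OVX libraries, grouped by their titles. The deposited table holds unnormalized read counts for each Ensembl identifier in each library. The submitters' processing notes name CASAVA, Bowtie 0.12.2 and mm10, with no role for each. The counting tool, annotation and strand setting are not given in the sources used here, so reads of overlapping or near-identical genes could not be checked. A ChIP-seq library for HIF-1α, with its input, was not analysed here.

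Symbols matched 54409 of 54532 identifiers. The software was edgeR 4.0.16, DESeq2 1.42.0 and limma 3.58.1, under R 4.3.3. filterByExpr by group kept 15305 genes, TMM factors scaled the libraries, and a quasi-likelihood test of OVX against Sham was fitted to all 6 without a replicate term, with Benjamini-Hochberg adjustment over all genes tested. The standard error is the log2 fold change divided by the square root of F. Totals ran from 23838775 to 33136701 counts, and no pair of libraries agreed within sampling noise. Likeness is the root mean square difference of centred log2 (CPM + 0.1). The fit was tested on simulated data.

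Besides the 10 members, the genes named were, in each other list, the 3 of highest mean CPM and the 1 of largest change, the 5 nearest to Siglech, and relatives of members. Cox6a2, Smim5, Tcf12, Xcr1, Epha2, Cd3e, Cd3d, Cd3g, Cd8a, Prdm1, Tnfrsf17, Ebf1, Sp7, Bglap and Tyrobp were chosen after their values were seen. The members and lists were chosen with earlier results of these data known. Alternatives were DESeq2, limma-voom, DESeq2 size factors, upper-quartile factors, library size alone, factors from the 12 general B cell genes, 2 other filters on low counts, no fold threshold, the replicate number as a block, and each library left out.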

Additional observations from a re-analysis of the deposited data

How the results depend on the processing

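No member and no gene was called by edgeR, DESeq2 or limma-voom under any of the 15 alternatives run on these counts, or with no fold threshold. At an unadjusted p under 0.05, 1 member passed in the main analysis, 4 without a filter on low counts, 3 with DESeq2, 0 with the replicate block and 0 to 7 when 1 library was left out. Over all genes this number was 574 (3.75% of those tested), with 206 (1.35%) under the replicate block. It was 1269 (4.63%) without the filter and 755 (2.75%) with DESeq2, each of 27416 genes. Without Sham replicates 1, 2 and 3 it was 2698 (16.8%), 360 (2.31%) and 286 (1.80%). Without OVX replicates 1, 2 and 3 it was 988 (6.18%), 233 (1.48%) and 411 (2.62%). The cause was not tested. Of 150 values of single members under alternatives, 148 kept their direction, and Pacsin1 (0.0067) and Lag3 (0.0226) turned positive without Sham replicate 2, with leave-one-out lows of -0.98 and -1.01 without Sham replicate 1. The members' median log2 fold change ran from -0.99 to -0.45 when 1 library was left out. That of the other plasmacytoid dendritic cell genes ran from -0.29 without OVX replicate 3 to -0.0126, and that of the interferon-response genes from -0.67 without Sham replicate 1 to 0.0574 without Sham replicate 3. The labels do not say whether same-numbered libraries were paired. Their deviations from group means correlated across genes (not independent replicates) at -0.40, -0.18 and -0.27, which shows no pairing but cannot exclude one. With 4 to 104 reads per library for Klk1 and 18 to 167 for Ccr9, depth limits both.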

Other observations

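Markers of other dendritic, plasma and killer cells were also read. Of 10 conventional dendritic cell genes 9 were tested and 0 called in edgeR's quasi-likelihood test, with 3 lower in OVX at an unadjusted p under 0.05, against 2.28% of all genes. Itgax, which encodes the integrin CD11c, had 2.03, 6.34 and 6.36 CPM in Sham replicates 1, 2 and 3 and 2.73, 1.87 and 1.82 CPM in OVX replicates 1, 2 and 3. Cd209a had the largest log2 fold change of that list (-1.63, standard error 0.59), and each OVX library lay below each Sham library, as for 4.12% of all genes. Clec10a, a lectin gene of dendritic cells and macrophages, had -1.46 (standard error 0.57). Xcr1, a defining receptor of type 1 conventional dendritic cells, had at most 18 reads in a library, while Ccr7, the most abundant gene of the list and one that B cells express, had a log2 fold change of 0.06.

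Of 8 plasma cell genes, 0 were called and 3 had an unadjusted p under 0.05, all lower in OVX, against 2.28% of all genes. These 3 were Prdm1, Tnfrsf17 (5 to 32 reads per library) and Cd28, and Jchain was not among them. Jchain, the joining chain of polymeric antibodies, had 112, 641 and 516 CPM in Sham replicates 1, 2 and 3 and 257, 105 and 71.3 CPM in OVX replicates 1, 2 and 3 (log2 fold change -1.55, standard error 0.68). Mzb1 and Slamf7, which other B lineage cells also express, had values of 0.06 and 0.19. The 9 natural killer cell genes summed to between 11.7 and 25.9 CPM in Sham and between 7.13 and 12.2 CPM in OVX, with 7 tested, 6 below 0 and 0 called. Nkg7 had -1.55 (standard error 0.59), Klrk1 -0.88 and Klrb1c 0.13. Of the 12 T cell genes, 12 were tested and 0 called, with 12 log2 fold changes below 0 (median -1.45) and 2 lower at an unadjusted p under 0.05, against 51.8% and 2.28% of all genes. The 2 at that threshold were Cd8a and Cd28. The largest change was that of Cd8b1 (-1.82, standard error 0.94), which had 2 to 46 reads per library and was not at that threshold. The abundant Lck, Cd4 and Cd28 had -0.24, -0.11 and -1.54. Cd28 is also in the plasma cell list. The summed level of the list was 50.6 to 72.1 CPM in Sham and 41.2 to 56.5 CPM in OVX. The 14 monocyte and macrophage genes had 9 of 13 tested members highest in Sham replicate 2 (25.7% of all genes), and 13 of 13 log2 fold changes below 0 (51.8% of all genes) with 0 called. Lyz2, Vcam1 and C1qb had -0.91, -0.35 and -0.38.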
